A study of Mus musculus with 8 samples.

Results

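The cytosolic ribosomal protein genes other than Rpl3 were taken from a microarray comparison of the EDL (extensor digitorum longus), a shin muscle of mostly fast fibres, in mice without Sod1 and in wild-type mice. Members were the genes whose platform symbol begins with Rpl or Rps followed by a number, or is Rplp0 to Rplp2 or Rpsa, without Rpl3, its muscle paralogue Rpl3l and the S6 kinases. This gave 69 of the 7053 named genes, 44 of the large subunit and 25 of the small subunit, each read from its probe of highest mean. The samples were 4 arrays of muscle labelled sod-/- and 4 labelled wild type, all from mice aged 7 months. Sod1 encodes the copper-zinc superoxide dismutase of the cytosol, and the series concerns the response of muscle transcription to chronic oxidative stress. The labels give no strain or sex, do not say whether the deletion is confined to a tissue, and do not say that each array is a separate animal, and p-values therefore cover only the spread among the samples at hand, which may be technical. Sod1 itself was not analysed here, and the genotypes rest on the labels alone.

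A cytosolic ribosome joins a small subunit, which holds the mRNA and reads its codons, to a large subunit, which forms peptide bonds and carries the tunnel through which the new chain leaves. The subunits are built in the nucleolus from ribosomal RNA and from proteins that are made in near equal numbers. The mRNAs of these proteins begin with a tract of pyrimidines (a 5′ terminal oligopyrimidine, or TOP, tract) through which mTORC1 signalling controls how much they are translated. In adult muscle the number of ribosomes sets an upper bound on protein synthesis and so on growth of the fibre.

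Of the 69 members, 63 lay above the median of the array in at least 4 of the 8 arrays, whatever the genotype, and were tested. The other 6, Rpl4, Rpl14, Rpl31, Rpl36al, Rps15a and Rps19bp1, lay above it in fewer arrays and have values without a test. All 10 fast muscle markers, among them Acta1, Ckm, Pvalb and Myh4, were tested under the same filter, with a median difference of 0.09. A higher knockout mean was found in 8 of them and a lower one in 2, Ckm and Myh4. No overlap between genotypes was found in 3, Actn3, Mylpf and Tnnc2, where 4.60% of all tested probes showed it. None had an adjusted p under 0.05 in limma. The values are log2 intensities brought to one common distribution by quantile normalization, so a change shared by all transcripts of a sample could not be seen. In whole muscle, fewer cells of a type and less RNA per cell cannot be told apart. With 4 arrays a genotype the precision is limited, and the standard error of a difference ran from 0.12 to 0.21 log2 units over the tested members.

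The mRNAs of the ribosomal proteins differed little between the genotypes. No member passed: in limma, with p-values adjusted by Benjamini-Hochberg over every tested probe, 0 of the 63 tested members had an adjusted p under 0.05, as had 0 of all 4698 tested probes (0%), and the smallest adjusted p of a member was 0.494. At an unadjusted p under 0.05 there was 1 member, Rpl22l1, where 9.34% of all tested probes met that threshold. The difference, knockout minus wild type, ran from -0.63 (Rps15a) to 0.22 (Rpl29) and lay within 0.25 of 0 in 64 of the 69 members and within 0.1 in 42. Its median over the members was -0.06, against -0.03 over all tested probes, and its median size was 0.08, against 0.19. Rpl3, which had been set apart on earlier results of these data, differed by 1.32 (limma adjusted p 0.228), outside the range of the members. Since it was left out on those results, its place outside the range is no separate finding.

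The intervals around these differences were narrow. The 95% interval from limma lay within 1 log2 unit of 0, a 2-fold change, in 62 of the 63 tested members, where 80.7% of all tested probes met that bound. It lay within 0.5 log2 units of 0 in 46 of the 63, against 22.5% of all tested probes. The exception to the wider bound was Rpl22l1, with an interval from -1.02 to -0.09. In limma each variance is moderated with that of all tested probes, so these intervals do not reflect a member's own spread alone. A small spread went with the high signal of most members. For the 20 members with a mean between 12 and 13, the median SD within a genotype was 0.13, against 0.21 in the 144 other tested probes of that range. For the 13 between 11 and 12 it was 0.16 against 0.24 in 306 probes. Above 13, where values approach the highest value on the arrays, 14.19, the SD was 0.11 for 18 members and 0.12 for 103 other probes. The 12 dimmer tested members were closer to other probes in spread, with 0.25 against 0.28 for the 6 between 9 and 11 and 0.26 against 0.33 for the 6 below 9. Between 9 and 11 the median size of the difference was larger in the members, 0.21 against 0.17.

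**Figure D1:**
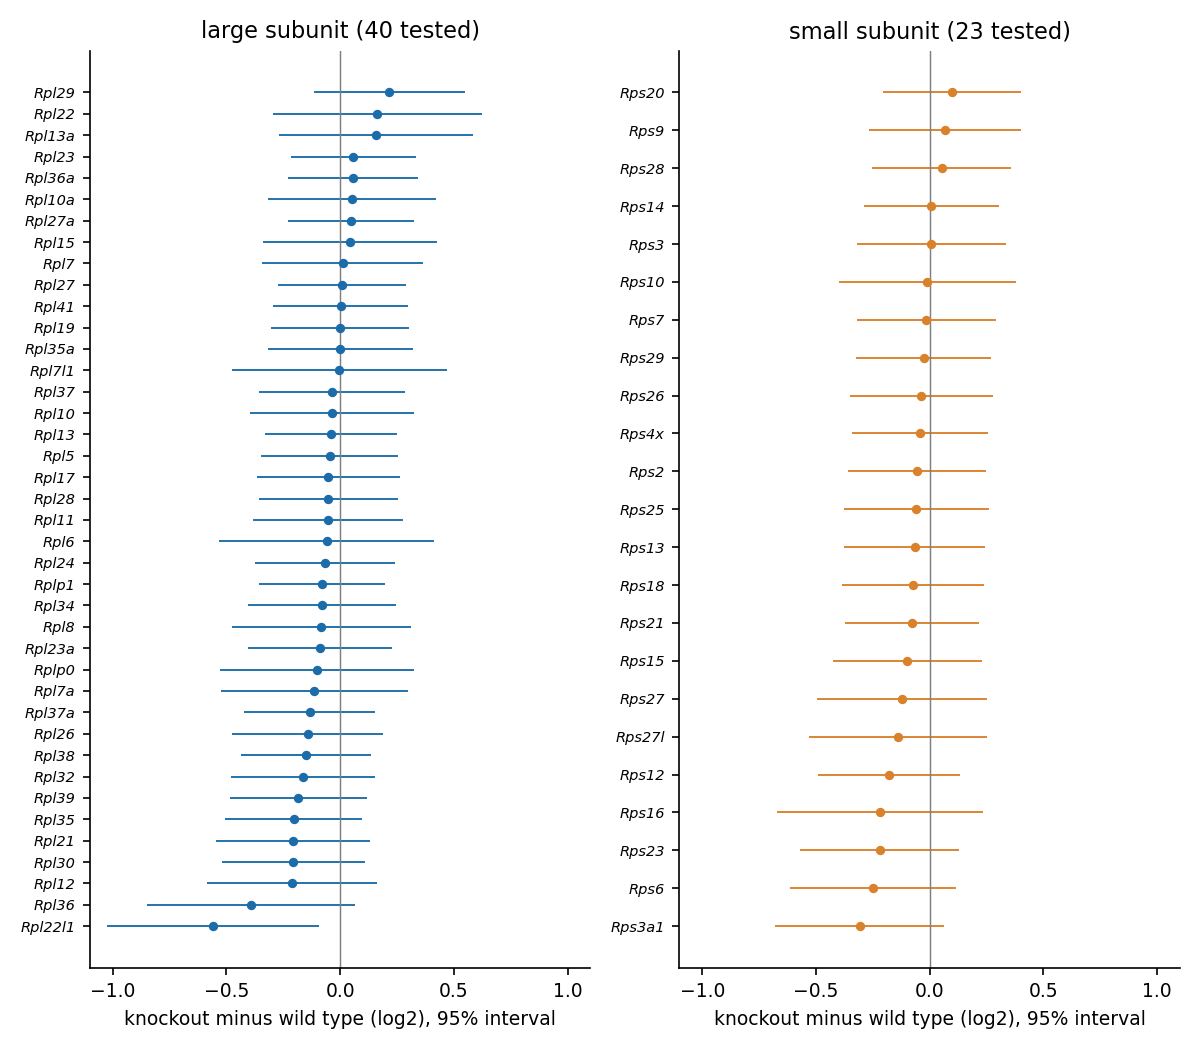
Difference between Sod1 knockout and wild-type EDL (log2, horizontal axis) for the 40 tested large subunit members and the 23 tested small subunit members, with the 95% interval from limma (4 arrays per genotype). The points run from -0.56 to 0.22 and the interval of Rpl22l1 is the 1 that does not cross 0.

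Large and small subunit genes did not part from each other. For each array the mean over the members was taken, relative to the mean of the 4 wild-type arrays. For the large subunit it was -0.05, -0.03, -0.06 and -0.12 in knockout replicates 1 to 4 and 0.04, -0.05, -0.17 and 0.18 in wild-type replicates 1 to 4. For the small subunit it was -0.09, -0.02, -0.13 and -0.15 in the knockout and -0.01, -0.01, -0.14 and 0.16 in the wild type. The wild-type arrays held both the lowest and the highest value of the large subunit, and the genotypes overlapped for either subunit. The knockout therefore differed by -0.07 for the large subunit (knockout SD 0.04, wild-type SD 0.15, n = 4) and by -0.10 for the small (SD 0.06 and 0.13). Large minus small was 0.04, -0.01, 0.07 and 0.03 in the knockout and 0.05, -0.05, -0.02 and 0.02 in the wild type. These values overlapped and their means differed by 0.03 (SD 0.03 and 0.04). No test was run on these means, since the members were chosen with earlier results known.

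**Figure D2:**
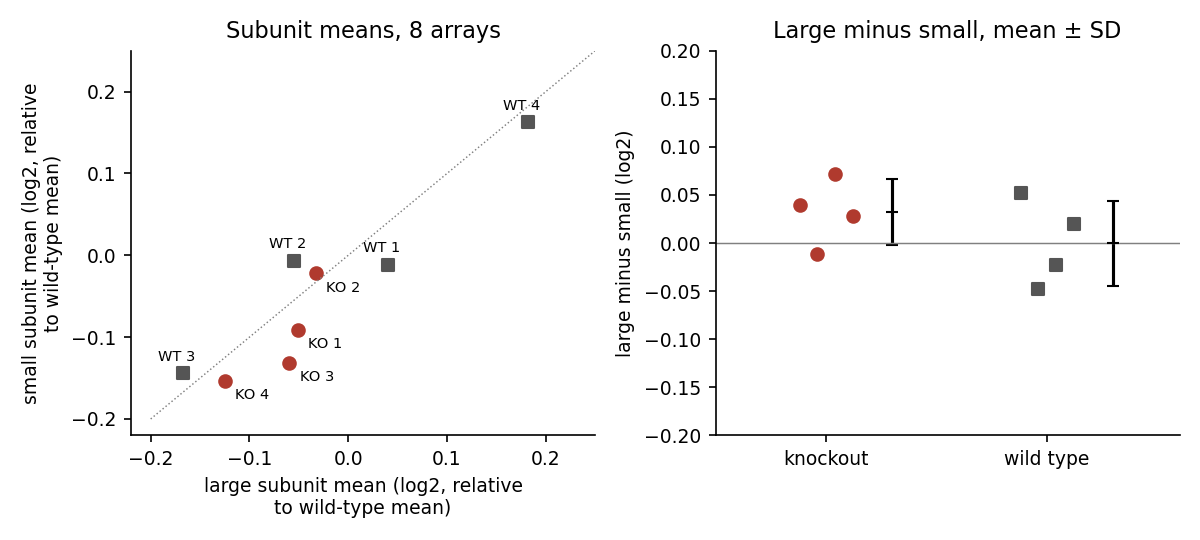
Left, mean of the small subunit members against the mean of the large subunit members in each array (log2, relative to the wild-type mean; KO, knockout, circles; WT, wild type, squares; dotted line, equality). Right, large minus small in each array with mean ± SD (n = 4): the 2 genotypes overlap, and WT 4 stands highest on both axes at 0.18 and 0.16.

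The members moved together from array to array within a genotype. Wild-type replicate 4 held the highest value of 35 of the 69 members (50.7%), 21 of the large and 14 of the small subunit, where 12.2% of all tested probes had their highest value in that array. In this array 65 of the 69 members lay above their own mean over the 8 arrays, by a median of 0.18, against 0.02 for all tested probes. Wild-type replicate 3 lay at the other end, with 19 members at their lowest, 7 above their own mean and a median of -0.11. Knockout replicate 4 was also low, with 18 members at their lowest and a median of -0.09. In the other 5 arrays the median lay between -0.05 and 0.05.

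**Figure D3:**
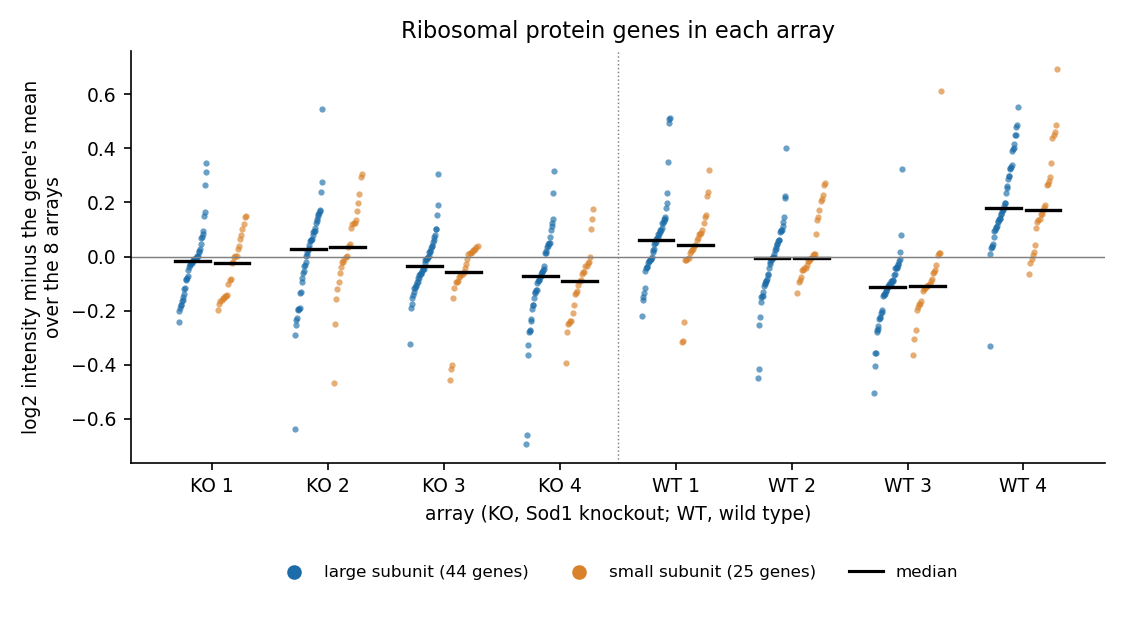
Log2 intensity of each of the 69 genes minus its own mean over the 8 arrays (vertical axis), by array (KO, Sod1 knockout; WT, wild type), with the median of each subunit as a bar. Both subunits stand highest in WT 4, where 65 genes lie above their mean, and lowest in WT 3, where 7 do.

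A lower mean in the knockout was found in 49 of the 69 members (29 of 44 large, 20 of 25 small), or 71%, against 54.1% of all tested probes. That lean varied with the array left out. Without wild-type replicate 3, where the members were low, the large and small subunit differences were -0.12 and -0.15. With all arrays they were -0.07 and -0.10. Wild-type replicate 4 was singled out because the members stood highest in it, so leaving it out had to shrink the lean. Without wild-type replicate 4, 36 of the 69 members had a lower knockout mean (21 large and 15 small), against 53.8% of the tested probes. The median difference was then -0.01, 0.01 for the large and -0.02 for the small subunit. Markers of red blood cells, 4 of the 7 listed and 3 of them tested, also stood highest in that array. Their mean over the genes was 0.77 above their average in wild-type replicate 4 and 0.47 in wild-type replicate 1, with -0.20 and -0.17 in the other wild-type arrays and -0.50 to 0.16 in the knockouts. The part of blood in the level of ribosomal protein mRNAs was not tested. Of the other cell types, 4 of 4 endothelial and 2 of 5 fibroblast markers were on the table, all with a lower knockout mean and medians of -0.39 and -0.16. In wild-type replicate 4 they stood at 0.24 and 0.23, below their values of 0.51 and 0.26 in wild-type replicate 3, where the ribosomal proteins were low. Of the macrophage and lymphocyte markers 2 of 10 were on the table and none was tested, with a median of 0.26. In wild-type replicate 4 these 2 markers stood at 0.48, the highest of the wild-type arrays, with knockout replicates 2 and 3 higher at 0.82 and 0.70. The single adipocyte marker on the table, Fabp4, was not tested, with all values, 4.10 to 5.30, below the array median of 6.93. It differed by -0.56 and was highest of all 8 arrays in wild-type replicate 4, at 0.75 above its mean. The single satellite cell marker, Cdh15, differed by -0.19 and was also highest in that array, at 0.29. The single Schwann cell marker, Mbp, was below the array median throughout and not tested. It differed by -0.08 and stood at 0.03 in wild-type replicate 4. The part of these cell types was not tested. The 13 further mRNAs of the TOP class on the table, such as elongation factors, stood at 0.13 in wild-type replicate 4 and -0.15 in replicate 3.

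With the genotype means removed, the members correlated across the 8 arrays. The median Pearson r over pairs was 0.43 within the large subunit, 0.37 within the small and 0.42 between them, against 0.00 over all pairs of tested probes and 0.01 among 1071 other tested probes with a mean above 10. Without wild-type replicate 4 these medians were 0.22, 0.27 and 0.27. All points share the same 8 hybridizations and one normalization, so this is a description. Set against the mean of the other members, 46 of the 69 had an r above 0.5. The closest followers were Rps10, Rps13 and Rps28 of the small subunit at 0.97, 0.97 and 0.96, and Rpl10a and Rpl26 of the large at 0.95 each. Rpl22 and Rps15a were the 2 members with a negative r, at -0.52 and -0.05.

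RefSeq promoter sequences (mouse, GRCm38.p6, 250 bases before to 50 after the annotated start) matched 56 of the 69 members, with 64 starts. They are shown because the members moved together across arrays. A core that ETS-family factors are known to bind, CGGAAG on either strand, was in 44 of the 64 member promoters (68.8%) and in 16.9% of all 32851 promoters. A pyrimidine tract, here a C followed by 7 more bases that are each C or T on the forward strand from 30 bases before to 20 after the start, was in 45.3% of member promoters and 15.9% of all. Its letters can overlap the CTTCCG form of the first motif. The further motifs searched were CTCTTT on the forward strand, in 34.4% against 12.1%, GGGCGG on either strand, in 62.5% against 35.7%, and TATAAA on the forward strand, in 9.38% against 8.32%. Below are 120 bases before to 20 after the start for 6 members named in the results that follow, with CGGAAG or CTTCCG in capitals. They lie at chr4:86857348-86857487 for Rps6, chr3:86142649-86142788 for Rps3a1, chr2:39005112-39005251 for Rpl35 and chrX:37085203-37085342 for Rpl39, all on the minus strand, and at chr13:90923002-90923141 for Rps23 and chr3:28805388-28805527 for Rpl22l1 on the plus strand. In these windows Rps6 holds 3 matches and Rps3a1 holds 1, and the letters are not in the windows of the other 4.
Rps6: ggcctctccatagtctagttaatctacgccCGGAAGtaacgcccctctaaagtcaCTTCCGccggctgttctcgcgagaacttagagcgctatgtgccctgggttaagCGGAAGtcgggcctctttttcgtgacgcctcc
Rps3a1: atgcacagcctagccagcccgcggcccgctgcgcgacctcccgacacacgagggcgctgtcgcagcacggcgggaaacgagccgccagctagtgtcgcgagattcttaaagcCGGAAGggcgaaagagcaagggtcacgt
Rpl35: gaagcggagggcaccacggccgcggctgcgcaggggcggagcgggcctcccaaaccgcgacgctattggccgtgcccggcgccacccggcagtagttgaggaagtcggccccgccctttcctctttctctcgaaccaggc
Rpl39: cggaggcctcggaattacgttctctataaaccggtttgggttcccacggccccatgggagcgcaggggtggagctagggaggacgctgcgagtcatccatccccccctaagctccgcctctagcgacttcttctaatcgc
Rps23: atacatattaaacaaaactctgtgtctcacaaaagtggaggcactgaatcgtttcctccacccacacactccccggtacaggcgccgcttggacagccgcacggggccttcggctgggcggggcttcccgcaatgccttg
Rpl22l1: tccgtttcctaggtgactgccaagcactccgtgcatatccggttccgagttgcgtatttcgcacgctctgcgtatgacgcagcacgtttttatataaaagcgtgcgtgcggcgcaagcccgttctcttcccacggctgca

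Among large subunit genes with a lower mean in the knockout, Rpl22l1, a paralogue that can take the place of Rpl22 in the ribosome, had the smallest p. Its log2 intensity was 7.81, 7.17, 7.69 and 7.44 in knockout replicates 1 to 4 and 8.30, 8.21, 7.61 and 8.22 in wild-type replicates 1 to 4. Wild-type replicate 3 lay inside the knockout range, so the groups overlapped. The mean was 7.53 ± 0.28 (SD, n = 4) against 8.09 ± 0.32, a difference of -0.56 with a standard error of 0.21, which did not pass (limma adjusted p 0.494). Rpl36 had 10.60, 10.56, 10.62 and 9.93 in the knockout and 11.13, 10.85, 10.53 and 10.76 in the wild type. The difference of -0.39 (standard error 0.20, limma adjusted p 0.573) drew on knockout replicate 4, which lay below all others. Without that array it was -0.23.

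Rpl39, which lines the tunnel for the nascent chain, was the 1 member of 69 without overlap between the genotypes, a pattern that 4.60% of all tested probes showed. It had 12.76, 12.89, 12.87 and 12.76 in the knockout and 13.01, 12.91, 12.90 and 13.20 in the wild type. The gap between the nearest values of the genotypes was far smaller than the spread within either, and the difference of -0.18 did not pass (limma adjusted p 0.675). Without wild-type replicate 4 it was -0.12. Rpl35, at the exit of the same tunnel, had 12.75, 12.82, 12.82 and 12.69 against 13.10, 12.96, 12.78 and 13.04, a difference of -0.20. Rpl30 had 8.16, 7.95, 8.18 and 7.86 against 8.27, 8.18, 8.16 and 8.38, a difference of -0.21. Wild-type replicate 3 fell within the knockout range in both genes. In Rpl30 wild-type replicate 2 did so too, at 8.176 against a highest knockout value of 8.179. Of the 8 members placed at the tunnel or its exit, 6 had a lower and 2 a higher knockout mean, with a median of -0.12.

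On the higher side, Rpl29 had 9.51, 9.31, 9.31 and 9.29 in the knockout and 9.21, 9.10, 8.89 and 9.35 in the wild type. Its difference of 0.22 was the largest among all members in that direction (standard error 0.15, limma adjusted p 0.658), and wild-type replicate 4 lay above 3 of the knockouts. Without wild-type replicate 3 it was 0.13. Rpl13a, which in human monocytes can leave the ribosome to silence inflammatory mRNAs, had 8.73, 8.19, 8.54 and 8.40 against 8.47, 8.37, 7.88 and 8.51. Rpl23 had 13.57, 13.66, 13.69 and 13.67 against 13.58, 13.64, 13.51 and 13.63, close to the ceiling. Both overlapped, with differences of 0.16 and 0.06, and without wild-type replicate 3 these were 0.02 and 0.03.

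Rpl22 had 9.06, 9.41, 9.03 and 9.37 in the knockout and 9.26, 8.69, 9.46 and 8.81 in the wild type, a difference of 0.16 within widely overlapping groups. It was 0.04 without wild-type replicate 2 and 0.30 without wild-type replicate 3. In mice the Rpl22 protein is known to hold down the level of Rpl22l1, and the pair was compared after their values were seen. Across the 8 arrays Rpl22 and Rpl22l1 ran in opposite directions, with a Pearson r of -0.69 (exact permutation p 0.0642, two-sided) and a Spearman rho of -0.64 (exact permutation p 0.0962, two-sided), neither past 0.05. With the genotype means removed r was -0.72, within the 4 knockout arrays -0.92 and within the 4 wild-type arrays -0.65. Set against the mean of the other members, with genotype means removed, Rpl22 had an r of -0.52 and Rpl22l1 of 0.44. Rpl22 thus ran against the members as a whole and Rpl22l1 with them. Whether the pair is tied beyond that was not tested. Without wild-type replicates 2 and 4, the arrays farthest from the median of Rpl22, the r of the pair was -0.41. Leaving out the most extreme values of Rpl22 narrows its range, so a weaker r does not show that the relation rested on them. Across the 8 arrays an r with Rpl22l1 as low as -0.69 was found in 47 of the 4697 other tested probes (1%), which include Rpl22. With the genotype means removed, the share with an r as low as that of the pair was 1.6%. The pair was picked after its values were seen, so these shares and the p-values describe it and do not test it.

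**Figure D4:**
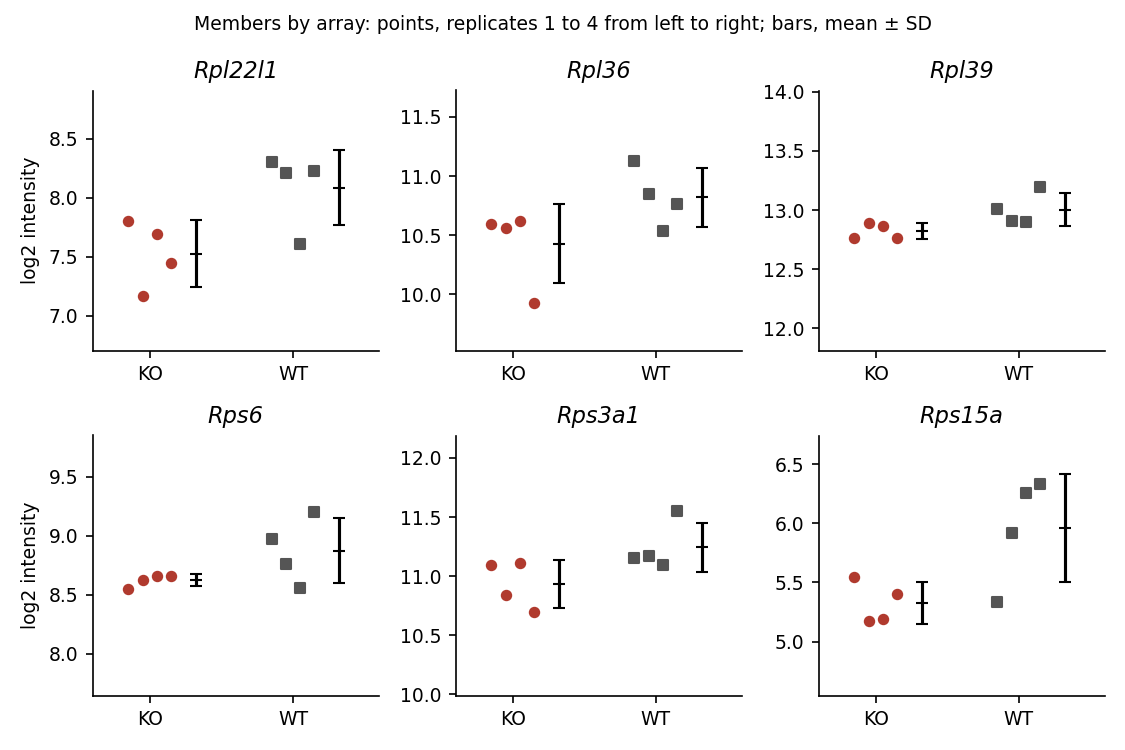
Log2 intensity (vertical axis, the same span in each panel) of 6 members in the 4 knockout (KO, circles) and 4 wild-type (WT, squares) arrays, replicates 1 to 4 from left to right, with mean ± SD. Rpl39 shows no overlap, with 12.89 and 12.90 as the nearest values, Rps6 shows 1 tight group at 8.55 to 8.66 in the knockout, and all values of Rps15a lie below the array median of 6.93.

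In the small subunit Rps3a1 had the smallest p, with 11.09, 10.84, 11.11 and 10.70 in the knockout and 11.16, 11.17, 11.10 and 11.55 in the wild type. Its difference of -0.31 (standard error 0.17) did not pass (limma adjusted p 0.577). Rps6, the substrate of the S6 kinases downstream of mTORC1, had 8.55, 8.63, 8.66 and 8.66 in the knockout and 8.97, 8.76, 8.56 and 9.20 in the wild type. The knockout values were tightly grouped at 8.62 ± 0.05 (SD, n = 4) and the wild-type values spread over 8.87 ± 0.27. The difference of -0.25 did not pass (limma adjusted p 0.645) and was -0.14 without wild-type replicate 4.

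Rps23, which sits at the decoding centre and affects the accuracy of reading, had 10.21, 10.40, 10.30 and 10.12 in the knockout and 10.39, 10.34, 10.38 and 10.81 in the wild type. Rps12 had 11.76, 11.82, 11.94 and 11.78 against 12.04, 11.83, 11.92 and 12.21, and Rps16 had 11.90, 11.72, 11.34 and 11.63 against 11.78, 11.98, 11.45 and 12.24. Wild-type replicate 4 was the highest array in each of these 3 genes, and the groups overlapped. Their differences were -0.22, -0.18 and -0.22, and without that array -0.11, -0.11 and -0.09. On the higher side Rps20 had 13.83, 14.08, 13.87 and 13.81 against 13.91, 13.83, 13.67 and 13.78. Rps9 had 12.44, 12.26, 12.23 and 12.50 against 12.08, 12.50, 12.22 and 12.37. Rps28 had 12.68, 12.80, 12.71 and 12.61 against 12.66, 12.58, 12.50 and 12.85, and Rps14 had 13.42, 13.72, 13.57 and 13.70 against 13.64, 13.59, 13.54 and 13.60. These 4 differed by 0.10, 0.07, 0.05 and 0.01, and all overlapped. With 1 array left out, the value nearest 0 was 0.04 for Rps20 (without knockout replicate 2) and 0.00 for Rps9 (without wild-type replicate 1) and for Rps28 (without wild-type replicate 3). Of 7 members placed at the mRNA path and decoding region, 4 had a lower and 3 a higher knockout mean, with a median of -0.04.

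Other members with known special roles were as flat. The stalk proteins Rplp0 and Rplp1, which recruit elongation factors, differed by -0.10 and -0.08. Rpl5 and Rpl11, which join the 5S ribosomal RNA and can bind Mdm2 to stabilize p53, differed by -0.05 each. Rpl38, which in mouse embryos favours translation of some Hox mRNAs, differed by -0.15, and Rpl10, among the last proteins to join the large subunit, by -0.04. The 13 members whose human counterparts are mutated in Diamond-Blackfan anaemia, an inherited failure of red cell production, had 8 lower and 5 higher means and a median of -0.01. None of these passed.

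The 6 members that did not pass the filter carried no test. Rps15a had 5.54, 5.17, 5.19 and 5.40 in the knockout and 5.33, 5.91, 6.25 and 6.33 in the wild type. Wild-type replicate 1 lay among the knockouts, and the difference of -0.63 was the most negative of all 69. Rpl4, a structural protein of the tunnel wall, had 4.58, 4.24, 4.47 and 3.77 against 4.94, 4.64, 4.02 and 4.77, a difference of -0.33. Leaving out knockout replicate 4 gave -0.16, and leaving out wild-type replicate 3 gave -0.52. Rps19bp1, which is no ribosomal protein but binds RPS19 and is known as a regulator of the deacetylase SIRT1, matched the rule by its name. It had 5.73, 6.11, 5.42 and 5.82 against 5.50, 6.09, 5.79 and 6.10. Rpl14, Rpl31 and Rpl36al differed by 0.20, 0.10 and -0.20. A low signal of a probe was not read as a low level of the mRNA, since probes differ in how well they bind. The paralogues Rps27l, a target of p53, and Rpl7l1 were tested and differed by -0.14 and 0.00.

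Probes for the same gene gave like differences in some members and unlike ones in others. Of the 63 tested members, 6 had another tested probe. The 2 probes of Rpl13a differed by 0.16 and 0.15, those of Rps3 by 0.01 and 0.02, those of Rpl23 by 0.06 and 0.00 and those of Rpl27a by 0.05 and 0.01. A further 3 members had other probes that did not pass the filter. Against the chosen probe, these gave 0.10 and -0.12 beside -0.21 for Rpl21, -0.37 beside 0.00 for Rpl7l1 and -0.25 beside -0.10 for Rplp0. The tested probes of Rpl38 disagreed, at -0.15 for the bright probe and 0.36 for a dimmer one, and the 3 of Rps9 gave 0.07, -0.01 and -0.20. None passed. Across the 8 arrays the other probe followed the chosen one for Rpl13a, Rps3, Rplp0 and 1 of the Rps9 probes, with r of 0.93, 0.90, 0.87 and 0.74. The r of the other 7 lay between -0.07 (Rpl38) and 0.40 (Rpl27a). Ribosomal protein genes have many processed copies in the genome: RefSeq names 260 pseudogenes after 51 of the 69 members, up to 24 for Rpl31. Whether probes also bind transcripts of such copies was not tested.

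Genes that build and regulate ribosomes were set beside the members. Of 91 listed factors for ribosomal RNA processing and subunit assembly 65 were on the table and 49 were tested. With limma 0 had an adjusted p under 0.05. At an unadjusted p under 0.05, 9 were lower and 1 was higher in the knockout, where 4.60% and 4.75% of all tested probes met that threshold. A lower knockout mean was found in 49 of the 65 and a higher one in 16, and the median difference was -0.23, against -0.06 for the ribosomal proteins and -0.03 for all tested probes. The difference between these medians was not tested, and the sets were not matched for signal. Most assembly factors were dimmer than most ribosomal proteins. Among other tested probes the median size of a difference was 0.21 for means up to 9 and 0.10 for means above 13. Imp3, part of the early small subunit processome, stood at 10.92 ± 0.09 (SD, n = 4) against 11.27 ± 0.04, and Noc2l at 7.31 ± 0.11 against 7.67 ± 0.09. Nop53, a late factor of the large subunit, stood at 7.20 ± 0.53 against 7.86 ± 0.08. All 3 had no overlap between genotypes, and none passed (limma adjusted p 0.482, 0.485 and 0.491). No overlap was found in 6 of the 65, 4 of them among the 49 tested, where 4.60% of all tested probes showed it. The others were Rpf1 and the untested Pwp1, lower by their means (-0.44 and -0.46), and the untested Utp20, higher by 0.74, and these were named after their values were seen.

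The lean of the assembly factors was smaller without either of 2 arrays, but remained. It did not follow the arrays in which the ribosomal proteins stood apart. Relative to their average, the mean of the assembly factors was lowest in knockout replicate 3 (-0.36) and highest in wild-type replicate 2 (0.32). It was 0.00 in wild-type replicate 4. Many other probes were also extreme in the first 2 of these arrays. Wild-type replicate 2 held the highest value of 21% and the lowest of 21.2% of all tested probes. For knockout replicate 3 these shares were 16.7% and 15.6%. Without knockout replicate 3 the median difference was -0.10 with 44 of 65 lower, and without wild-type replicate 2 it was -0.14, also with 44 lower. The median of all tested probes without either array was not computed. Leaving out any 1 of the other arrays gave medians from -0.29 to -0.22.

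**Figure D5:**
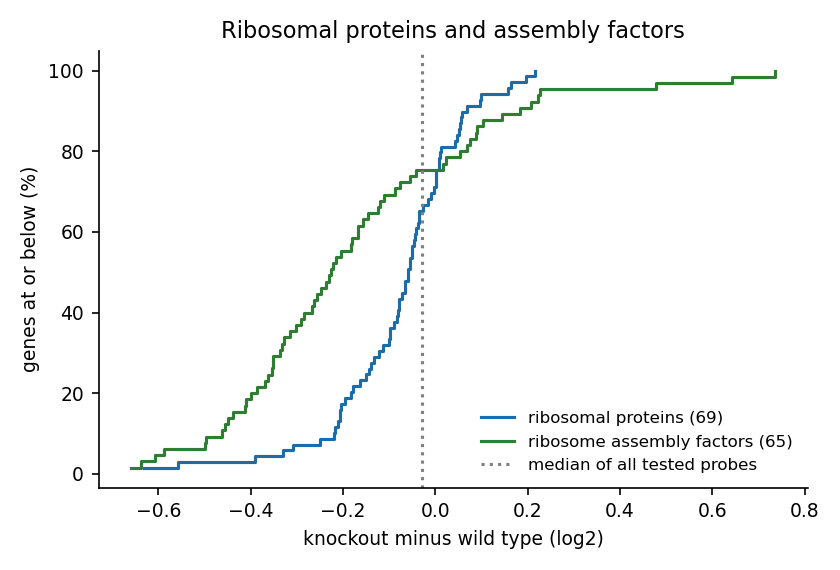
Cumulative share of genes (vertical axis, percent) by difference between knockout and wild type (log2, horizontal axis) for the 69 ribosomal protein genes and the 65 ribosome assembly factors, with the median of all tested probes as a dotted line. The assembly factors are spread wider and centred at -0.23, and the ribosomal proteins rise steeply around -0.06.

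Transcription of ribosomal RNA by polymerase I and of 5S RNA had 18 of 24 listed genes on the table, 15 with a lower and 3 with a higher knockout mean and a median of -0.22. Of these, 12 were tested, 9 lower and 3 higher, where 54.1% of all tested probes were lower. In limma 1 was lower at an unadjusted p under 0.05, where 4.60% of all tested probes were. Polr1c and Twistnb, both polymerase I subunits, differed by -0.52 and -0.38, and the polymerase I factor Ubtf by -0.41. Relative to their average, the mean of all 18 genes was 0.31 in wild-type replicate 2 and -0.21 and -0.24 in knockout replicates 2 and 3. For this list no array was left out in turn. Of the mTORC1 and S6 kinase genes 10 of 23 were on the table, 7 higher and 3 lower. Pdcd4, a repressor of translation that S6 kinase marks for degradation, differed by 0.66, Deptor, an inhibitor of mTOR, by 0.86, and Akt1s1, another mTORC1 inhibitor, by -0.44. Eif4ebp1, a translation repressor that mTORC1 inactivates, was named after its values were seen: it differed by -0.86 (limma adjusted p 0.575), with 10.76 in knockout replicate 3 and 12.53 to 12.92 in the other knockouts. The 13 TOP mRNAs outside the ribosome had a median of -0.07, with Eif3e at -0.48, Nap1l1 at 0.40 and Eef1g at 0.16. Among proteins bound to or fused with ribosomal proteins, 4 of 7 were on the table: Fau, the precursor of Rps30, differed by -0.11, Naca by -0.08, Btf3 by 0.05 and Serbp1 by 0.02. No gene of these 4 lists passed the test over all probes.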

How the data were processed

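Total RNA of mouse muscle was labelled with biotin for Illumina arrays, per the labels' protocols, with 4 Sod1 knockout and 4 wild-type arrays grouped by title. The values are the log2 intensities the authors deposited. All 8 columns hold the same sorted values (median 6.93, range 3.21 to 14.19), so they were quantile normalized, and base 2 was judged from that range. For background correction and software the sources used here give nothing. A second table of 8 columns was not used, since its column names match no label.

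Symbols came from the platform annotation (8403 of 9232 probes had 1 gene). The filter kept 4698 probes that exceeded the median of the array in 4 or more arrays, and limma 3.58.1 (R 4.3.3) was fitted to them (genotype term, eBayes without trend, two-sided, Benjamini-Hochberg over all tested probes), with 95% intervals. The procedure was tested on simulated data. The members and gene lists were chosen with earlier results of these data known, and the position groups and the Rpl22 pair after member values were seen. Members given in full had an unadjusted p under 0.05, no overlap, the smallest p until 4 were named per subunit and direction, or 1 of the 3 largest SDs per subunit. Deviations of arrays with the same replicate number correlated at -0.28, -0.15, 0.24 and -0.34, so numbers were not used as pairs. Alternatives covered filter, moderation, array weights, block, probe choice, normalization, member set and each array left out.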

Additional observations from a re-analysis of the deposited data

Results flagged for a closer look

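Of 50 groups of 4 arrays checked (21 named genes and 4 means over members, in each genotype), 5 had 1 array far from the other 3 by Dixon's criterion, and chance flags about 1 in 20 groups. Rpl22l1 stood at 7.61 in wild-type replicate 3, with the other wild-type arrays at 8.21 to 8.30. Rpl29 stood at 9.51 in knockout replicate 1, with the others at 9.29 to 9.31. Rpl36 stood at 9.93 in knockout replicate 4, with the others at 10.56 to 10.62. Rps23 stood at 10.81 and Rps3a1 at 11.55 in wild-type replicate 4, with the others at 10.34 to 10.39 and at 11.10 to 11.17. That array held the highest value of 35 of the 69 members.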

How the results depend on the processing

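Members with an adjusted p under 0.05 numbered 0 in limma under every setting run. Members with an unadjusted p under 0.05 numbered 1, and became 2 with no filter on dim probes, 0 with array weights and 0 with paralogue and non-subunit symbols left out, where Rpl22l1 is not among the members. Leaving out 1 array gave 0 to 1, and it was 0 when the array left out was knockout 2, knockout 4, wild type 1, wild type 2 or wild type 4. With the replicate number as a block the large and small subunit differences were -0.07 and -0.10 and 1 member had an unadjusted p under 0.05, and the block changed no call. Leaving out 1 array moved the large subunit difference over -0.12 to -0.0064, the small over -0.15 to -0.045 and large minus small over 0.016 to 0.049. The values nearest 0 for either subunit came without wild-type replicate 4. Over the members above the array median in all 8 arrays, large minus small was 0.0083, and it was the same over the tested members, an alternative chosen after seeing the data. The direction turned for Rps9 with the mean over all probes of a gene (-0.048), for Rps14 when knockout 2 (-0.031), knockout 4 (-0.025) or wild type 3 (-0.0097) was left out, and for Rps19bp1 when knockout 3 was left out (0.020). Over all arrays left out in turn, Rps14 ranged from -0.031 to 0.068 and Rps19bp1 from -0.22 to 0.020. The cause was not tested. Centring each array or cyclic loess moved the median difference of all tested probes by 0.0043 and 0.019.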
